A study of Mus musculus with 20 samples.

Results

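Rasl11a (ENSMUSG00000029641) encodes a small GTPase of the RAS superfamily. It is described here in all 20 mRNA-seq libraries of cultured mouse nephron progenitor cells (NPCs), as 1 of 31130 genes in the deposited table and 1 of the 4316 that the deposited comparisons pair with a symbol. It was chosen by its higher level in high CHIR after loss of cadherins or α-catenin. Those high CHIR values, and the responses to CHIR of the same knockouts, are therefore given as a description with no test.

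The NPCs were primary kidney cells carrying Cas9 and eGFP, transfected with sgRNAs and sorted for a co-transfected mCherry reporter. After a knockout period of 48 h they spent 24 h in CHIR at 1.25 µM (low CHIR) or at 5 µM (high CHIR). CHIR is an inhibitor of the kinase GSK3β that marks β-catenin for degradation. CTRL cells received sgRNA against GFP, α-catenin KO cells against Ctnna1, QCKO cells against Cdh2, Cdh3, Cdh4 and Cdh11 together, and β-catenin KO cells against Ctnnb1. Each CHIR concentration had 3 CTRL and 3 β-catenin KO libraries, 2 α-catenin KO libraries (replicates 1 and 3) and 2 QCKO libraries (replicates 2 and 3), where a replicate number stands for a date in the sample titles that the groups share. The knockouts are mixed populations of transfected cells, not clones, and sorting selects for uptake of the reporter and not for loss of the target. The labels do not say whether libraries came from separate pools of kidneys, so p-values measure the spread between these libraries.

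NPCs express Six2 and are the source of the nephron epithelium. A Wnt signal stabilises β-catenin, which joins TCF/LEF factors at target genes and moves NPCs towards the renal vesicle. β-catenin also ties cadherins to α-catenin and so to the actin cytoskeleton at cell-cell contacts. Removal of cadherins or α-catenin thus takes away adhesion, whereas removal of β-catenin also takes away the transcriptional arm. RASL11A is an atypical RAS protein that lacks the lipid anchor of RAS at the plasma membrane. It has been placed in the nucleolus, where it acts with the factor UBTF in transcription of ribosomal RNA genes by RNA polymerase I.

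Rasl11a lies on the plus strand of mouse chromosome 5 (GRCm38.p6, RefSeq annotation), from 146845071 to 146847726, a span of 2656 bases. Its nearest annotated neighbours are Rpl21 and a pair of snoRNA genes on the side of lower coordinates, and the lncRNA genes Gm38748 and Gm10858 and then Gtf3a on the other side. None of these is paired with an identifier in the files, so their levels are not given here. The 250 bases before the start of the gene (chr5:146844821-146845070, RefSeq promoter table of the same build) are shown because the gene responded to CHIR in CTRL cells, with the match to the TCF/LEF core in capitals.

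Rasl11a promoter: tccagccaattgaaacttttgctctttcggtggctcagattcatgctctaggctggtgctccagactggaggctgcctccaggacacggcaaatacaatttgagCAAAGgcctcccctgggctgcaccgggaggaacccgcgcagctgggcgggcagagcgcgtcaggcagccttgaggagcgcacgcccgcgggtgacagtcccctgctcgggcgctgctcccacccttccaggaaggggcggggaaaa

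The core CTTTG, searched on both strands, occurred once, on the opposite strand, at 146 bases before the start. This core was found in 48.58% of 32851 RefSeq promoter windows of this length. Longer forms that contain the core were not in this window. Of all windows, CTTTGAA was in 4.46%, the form CTTTGAT in 3.21%, the form CTTTGTA in 3.20% and the form CTTTGTT in 5.03%. The AP-1 letters TGANTCA (6.75% of windows) and the TEAD letters GGAATG (12.64%) were not in it either. The window has a GC content of 63.6%.

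The libraries held 18124772 to 28472412 reads (median 21449823), of which 253 to 4793 were assigned to Rasl11a. Values are read counts divided by a size factor per library, called normalized counts here. Six2, a defining progenitor gene, was at 943 to 1642 normalized counts in CTRL libraries in low CHIR and at 64.1 to 83.8 in high CHIR. The 7 of 8 progenitor markers with an identifier summed to 13232 to 18440 in CTRL at low CHIR and to 2385 to 3156 at high CHIR. Of the targeted genes, Ctnna1 in α-catenin KO stood at 40.35% of the CTRL mean in low and 47.37% in high CHIR. In QCKO, Cdh11 stood at 50.04% and 40.22%, Cdh2 at 63.48% and 77.02%, Cdh3 at 126.79% and 103.81%, and Cdh4 at 95.22% and 104.83% of CTRL. A frameshift need not lower the transcript, so the cadherin values check the labels in part.

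The libraries labelled β-catenin KO fell apart by date. Axin2, a feedback inhibitor that is a standard readout of β-catenin, had 14 and 18.5 normalized counts in low and high CHIR in replicate 1, 560 and 743 in replicate 2, and 384 and 687 in replicate 3. The CTRL range was 39.3 to 71.5 in low CHIR and 357 to 435 in high CHIR. Replicate 1 therefore lay under every CTRL library, whereas replicates 2 and 3 in low CHIR lay far above the CTRL libraries of the same condition. Of the 9 of 13 Wnt/β-catenin responsive genes with an identifier, 0 in replicate 1, 6 in replicate 2 and 8 in replicate 3 were above every CTRL library in low CHIR. In high CHIR, 9, 5 and 2 of these genes were below every CTRL library. Ctnnb1 itself is not paired with an identifier, so its level is not given here. Other genes set all these replicates apart from CTRL in the same direction. In high CHIR Six2 had 798, 409 and 467.5 normalized counts in replicates 1, 2 and 3, all above CTRL, and the progenitor markers summed to 5527 to 10484. Of the 7 progenitor markers 6 were called higher than CTRL there and 1, Pax2, lower, beside 7.67% of all genes called higher and 2.86% lower. With replicates 2 and 3, 5 were called higher, Six2 among them (log2 difference 2.59), and Pax2 lower, beside 6.04% and 1.69% of 16613 genes. Replicate 1 gave 3.46 for Six2. The replicates thus disagreed in the Wnt genes, with Axin2 of replicates 2 and 3 above every CTRL library of the same condition in low and in high CHIR. They agreed in direction for Six2 and the progenitor sum in high CHIR. What replicates 2 and 3 represent is uncertain, and the cause of the split was not tested. “β-catenin KO” is used below for the libraries so labelled. Results on Rasl11a in them are given over all replicates, for replicates 2 and 3, and for replicate 1 alone. The last is a value with no test since it leaves 1 library per condition.

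Rasl11a was lowest in low CHIR and highest in the adhesion knockouts (α-catenin KO and QCKO) in high CHIR. In low CHIR its normalized counts were 248, 416 and 390 in CTRL replicates 1 to 3, 218 and 357 in α-catenin KO, and 342 and 278 in QCKO. These ranges overlapped. The β-catenin KO libraries in low CHIR had 650, 783 and 715, above all the other libraries in this condition.

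In high CHIR the counts were 1613, 1032 and 1988 in CTRL and 1486, 2404 and 2067 in β-catenin KO, which overlapped. They were 3115 and 3885 in α-catenin KO and 5547 and 4482 in QCKO. All 4 libraries of the adhesion knockouts lay above all 6 other high CHIR libraries, and both QCKO libraries lay above both α-catenin KO libraries.

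The group means followed this order. They were 287 ± 98.7 (SD, n = 2) in α-catenin KO, 310 ± 45.3 (SD, n = 2) in QCKO and 351 ± 90.2 (SD, n = 3) in CTRL, all at low CHIR, neighbours that did not differ beyond their spread. Next came β-catenin KO in low CHIR at 716 ± 66.2 (SD, n = 3) and CTRL in high CHIR at 1544 ± 482 (SD, n = 3), with no overlap between these neighbours. β-catenin KO in high CHIR, at 1986 ± 465 (SD, n = 3), overlapped with CTRL. At high CHIR α-catenin KO, at 3500 ± 545 (SD, n = 2), and QCKO, at 5014 ± 753 (SD, n = 2), closed the order, each without overlap with the group before it.

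**Figure D1:**
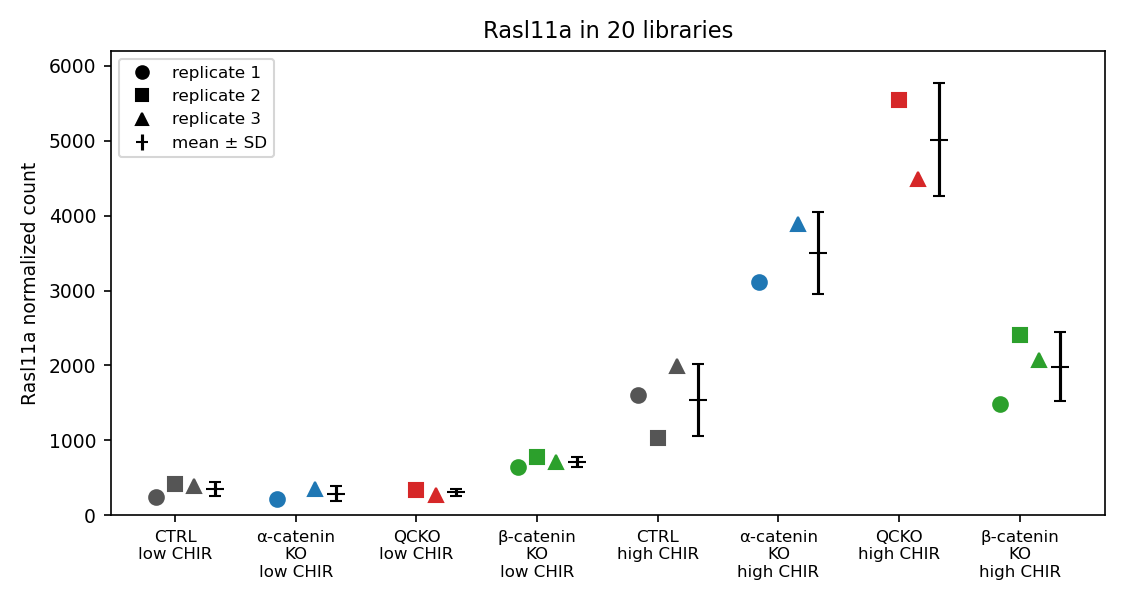
Normalized count of Rasl11a (y axis, linear) in each library, by knockout and CHIR concentration (x axis), with marker shapes for the replicate numbers and the group mean ± SD beside the points. The QCKO libraries in high CHIR, at 5547 and 4482, and the α-catenin KO libraries, at 3115 and 3885, are above all CTRL libraries, whose highest value is 1988.

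The selected pattern was as follows. In high CHIR the mean of QCKO was 3.25 times and that of α-catenin KO 2.27 times the CTRL mean, or 1.74 and 1.22 as differences of mean log2(normalized count + 1). All 4 adhesion knockout libraries lay above all 3 CTRL libraries for 5.68% of the 16516 genes tested, and since the gene was selected on this contrast nothing is read from its place among them. Bulk values cannot tell a higher share of cells with the transcript from more transcript per cell.

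Compared by date, the ratio of α-catenin KO to CTRL in high CHIR was 1.93 in replicate 1 and 1.95 in replicate 3. The ratio of QCKO to CTRL was 5.38 in replicate 2 and 2.26 in replicate 3. CTRL replicate 2 had the lowest Rasl11a, Jag1 and Lhx1 values of the CTRL libraries in high CHIR, with Jag1 at 2725 against 7444 and 13323. Without it the ratios of means were 2.79 for QCKO and 1.94 for α-catenin KO. Leaving out other single libraries gave 2.90 to 3.79 for QCKO and 2.02 to 2.65 for α-catenin KO.

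The step from α-catenin KO to QCKO was smaller than either step from CTRL. The QCKO mean was 1.43 times the α-catenin KO mean in high CHIR. In replicate 3, the date that both knockouts share, the ratio was 1.15, and in low CHIR it was 0.777.

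The ratio of the high to the low CHIR mean was 12.2-fold in α-catenin KO and 16.2-fold in QCKO, beside 4.4-fold in CTRL and 2.77-fold in β-catenin KO. By date, the ratio of high to low CHIR was 14.3 and 10.9 in α-catenin KO and 16.2 and 16.1 in QCKO. In CTRL it was 6.50, 2.48 and 5.10. Every adhesion knockout ratio was thus larger than every CTRL ratio, as a description of the contrast that chose the gene.

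The order held without the size factors, on reads scaled by the library total (RPM). Rasl11a had 36.4 to 89.1 RPM in CTRL, 132 and 186 in α-catenin KO, and 253 and 205 in QCKO at the high concentration. In low CHIR it had 11.6 to 18.9 in CTRL, 10.7 and 17.6 in α-catenin KO, and 16.3 and 13.5 in QCKO.

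Other genes were further from CTRL than Rasl11a in these libraries. Among the 10824 genes with a mean of at least 100, 703 had all adhesion knockout libraries above all CTRL libraries in high CHIR. By the mean log2 difference over both knockouts Rasl11a (1.48) had rank 32 of these and rank 30 of the 441 with a symbol. The highest with a symbol were Serpinb7, a serine protease inhibitor (3.09), Dlx5, a homeobox factor (2.34), Cdh1, which encodes E-cadherin (2.22), Ccn1, a matricellular protein (2.10), and Krt8, an epithelial keratin (2.10). Of these 5, Serpinb7 (5.86) and Dlx5 (3.09) also rose with CHIR in CTRL on the log2 scale, as Rasl11a did (2.12). Cdh1 (-1.95), Ccn1 (-1.36) and Krt8 (-1.21) were lower in high CHIR there. Serpinb7 was at 0 in CTRL in low CHIR, so its value of 5.86 depends on the pseudocount. Its CTRL mean in high CHIR was 59.4. Only its adhesion knockout means in high CHIR, 688 in α-catenin KO and 416 in QCKO, were above 100. Serpinb7 thus entered this ranking through the libraries in which it was high.

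The summed markers of ureteric epithelium were higher in both adhesion knockouts than in CTRL in high CHIR, though not every marker was. Markers have an identifier because they passed a threshold in a deposited comparison. Those comparisons include the adhesion knockouts against CTRL in high CHIR, so the sums are a description and do not stand for the whole marker sets. The 4 of 8 markers with an identifier (Wnt11, Gata3, Hoxb7 and Krt8) summed to 841 to 1007 normalized counts in CTRL, 1199 to 1988 in α-catenin KO, 1699 to 1859 in QCKO and 537 to 1027 in β-catenin KO. In low CHIR the sums were 279 to 837 in CTRL, 382 to 851 in α-catenin KO, 474 to 665 in QCKO and 435 to 744 in β-catenin KO. Gata3, a transcription factor, gave most of the difference in QCKO, with 171 to 354 in CTRL, 340 and 702 in α-catenin KO and then 857 and 874 in QCKO at this concentration. The lower α-catenin KO value of Gata3 lay inside the CTRL range. Hoxb7 overlapped with CTRL in both knockouts, with 584 to 749 in CTRL, 621 and 815 in α-catenin KO and 717 and 878 in QCKO. Krt8 had 22.7 to 79.9 in CTRL, 229 and 466 in α-catenin KO, with 119.5 and 102 in QCKO. Wnt11, the ligand of ureteric tips, was at 9.0 or below in these 7 libraries and at 0 in CTRL replicate 2. Tek, the single endothelial marker of 6 with an identifier, was at 89.7 to 177 in CTRL, 92.7 and 383 in α-catenin KO and 221 and 357 in QCKO. Meis1, the single stromal marker of 8 with an identifier, overlapped between groups in high CHIR, with 749.9 to 1090 in CTRL, 949 to 1094 in α-catenin KO and 890.3 to 1091 in QCKO. Six2, the defining progenitor gene, was at 41.2 and 63.5 in α-catenin KO and 27.8 and 44 in QCKO, all below the CTRL range of 64.1 to 83.8 in high CHIR. The sum of the 7 progenitor markers overlapped, with 2385 to 3156 in CTRL, 2187 to 2615 in α-catenin KO and 2225 to 2467 in QCKO. So did the sum of 4 of 6 markers of the induced nephron, with 8439 to 24038 in CTRL, 13452 to 16343 in α-catenin KO and 12110 to 19625 in QCKO. Of 6 leukocyte markers 0 had an identifier. The part of these markers in the Rasl11a values was not tested.

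The response of CTRL cells to CHIR was tested, with CTRL high CHIR libraries that also entered the selection. Rasl11a rose in high CHIR with a log2 fold change of 2.12 (SE 0.281, 95% interval 1.51 to 2.73, adjusted p = 0.0004263, limma with Benjamini-Hochberg adjustment over 16516 genes). All 3 high CHIR libraries lay above all 3 low CHIR libraries, which was so for 13.0% of genes. The limits for a call were 0.05 for the adjusted p and 0.5 for the size of the log2 fold change, and 4.84% of the genes tested were called higher. An exact permutation test on 3 against 3 libraries gave p = 0.10, the smallest it can give.

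In low CHIR no difference between the adhesion knockouts and CTRL was detectable for Rasl11a. Over both knockouts the log2 difference was -0.22 (SE 0.263, 95% interval -0.79 to 0.35, limma adjusted p = 0.9998), and an exact two-sided permutation test of 4 against 3 libraries gave p = 0.4571. In that comparison limma called 0 genes (0%), as edgeR and DESeq2 did, and 183 genes had an unadjusted p under 0.05. By date the ratio to CTRL was 0.877 and 0.917 for the α-catenin KO libraries, and for QCKO it was 0.822 and 0.713, all under 1.

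Taken separately the 2 knockouts gave wider intervals. The log2 difference was -0.15 in QCKO (SE 0.314, 95% interval -0.83 to 0.53, limma adjusted p = 0.9998), where 1 gene, or 0.00605%, was called. It was -0.30 in α-catenin KO (SE 0.314, 95% interval -0.98 to 0.39, limma adjusted p = 0.9999), where limma and edgeR called 0 genes, DESeq2 called 1 and 109 had an unadjusted p under 0.05 in limma. The α-catenin KO difference was 0.06 without α-catenin KO low CHIR replicate 1. The QCKO interval holds a change of 0.5 in either direction on the log2 scale. In limma none of the 5 targeted genes with an identifier was called in either knockout in low CHIR. This held although Ctnna1 in α-catenin KO stood at 40.35% of the CTRL mean. The lack of a call for Rasl11a therefore does not show that it was unchanged.

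Libraries labelled β-catenin KO had more Rasl11a than CTRL in low CHIR, a comparison outside the selection. The group mean was 2.04 times that of CTRL, and the ratio was 2.62, 1.88 and 1.84 in replicates 1, 2 and 3. All 3 β-catenin KO libraries lay above all 3 CTRL libraries, which was so for 5.72% of 16691 genes. The log2 difference was 1.06 (SE 0.267, 95% interval 0.49 to 1.62) with an unadjusted limma p of 0.001119 and an adjusted p of 0.2548, so it was not called. In limma 11 genes, or 0.0659%, were called in this comparison.

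That call depended on the tool. DESeq2 on recovered reads called Rasl11a at an adjusted p of 0.0278, and over all alternatives the adjusted p ran from 0.0278 to 0.6552. An exact permutation test gave p = 0.10, the smallest possible for 3 against 3. The log2 difference was 1.12 (adjusted p = 0.1044, limma) for replicates 2 and 3 and 0.92 for replicate 1, whose Axin2 values lay on opposite sides of CTRL. Whether these differences differ was not tested.

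In high CHIR β-catenin KO and CTRL did not differ detectably in Rasl11a. The log2 difference was 0.39 (SE 0.267, 95% interval -0.18 to 0.95, limma adjusted p = 0.3593, exact permutation p = 0.4), in a comparison that shares its CTRL libraries with the selection and called 10.5% of genes. By date the ratios were 0.921, 2.33 and 1.04. Replicates 2 and 3 gave 0.58 (limma adjusted p = 0.2432) and replicate 1 gave -0.004.

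Rasl11a was also higher in high than in low CHIR within β-catenin KO. The ratio was 2.29, 3.07 and 2.89 in replicates 1 to 3, and all high CHIR libraries lay above all low CHIR libraries, as did those of 4.63% of genes. The log2 difference was 1.45 (SE 0.267, 95% interval 0.88 to 2.01) with a limma adjusted p of 0.08948, in a comparison that called 3 genes, or 0.018%. An exact permutation test gave the smallest possible p of 0.10. With the date as a block it was called at a limma adjusted p of 0.0129, and with DESeq2 at 0.0002298, and the adjusted p ran up to 0.5127 over the alternatives that kept more than 1 library per condition. Replicates 2 and 3 gave 1.57 (limma adjusted p = 0.2182) and replicate 1 gave 1.19.

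The Wnt-responsive genes were not alike in β-catenin KO replicate 1. There Axin2 moved 1.32-fold with CHIR and Lef1, a TCF/LEF factor, 1.5-fold, whereas in CTRL they moved 6.08-fold to 9.10-fold and 13.1-fold to 22-fold. Jag1 moved 4.9-fold (5.4-fold to 51.5-fold in CTRL), Wnt4 8.37-fold (57.3-fold to 129-fold) and Lhx1 13.1-fold (6.4-fold to 156-fold). Rasl11a, at 2.29-fold in that replicate and 2.48-fold to 6.50-fold in CTRL, thus lay between these genes. In replicates 2 and 3 Axin2 moved 1.33-fold and 1.79-fold from levels that were already high, and Rasl11a 3.07-fold and 2.89-fold. Of the β-catenin KO ratios of Rasl11a, those of replicates 2 and 3 lay within the CTRL range and that of replicate 1 under it, a smaller rise. Lgr5 was lower in high than in low CHIR, with ratios of 0.322 in replicate 1, then 0.421 and 0.509, against 0.36 to 0.713 in CTRL. Its replicate 1 ratio was thus a larger fall than in CTRL. For Axin2, Lef1, Tcf7, Wnt4 and Jag1 every β-catenin KO ratio lay under the CTRL range, and for Lhx1 that of replicate 1 lay inside it.

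The response to CHIR was not shown to differ between β-catenin KO and CTRL. The interaction was -0.67 on the log2 scale (SE 0.378, 95% interval -1.47 to 0.13, limma adjusted p = 0.5601), and 0.671% of genes were called for it. It was -0.54 with replicates 2 and 3 (limma adjusted p = 0.6402) and -0.93 with replicate 1. This term also shares the CTRL high CHIR libraries with the selection.

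**Figure D2:**
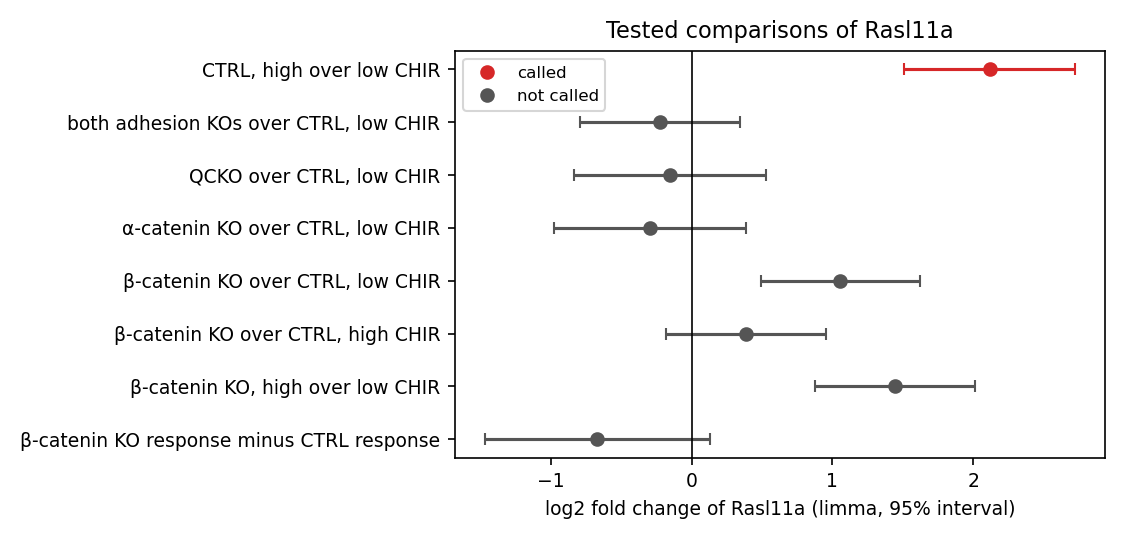
Log2 fold change of Rasl11a (x axis, limma, points with 95% intervals) in the 8 tested comparisons (y axis), red where the gene was called. CTRL in high against low CHIR (2.12) is called, the 3 adhesion knockout intervals in low CHIR span 0, and the intervals of β-catenin KO in low CHIR (0.49 to 1.62) and of its CHIR response (0.88 to 2.01) lie above 0 without a call.

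**Figure D3:**
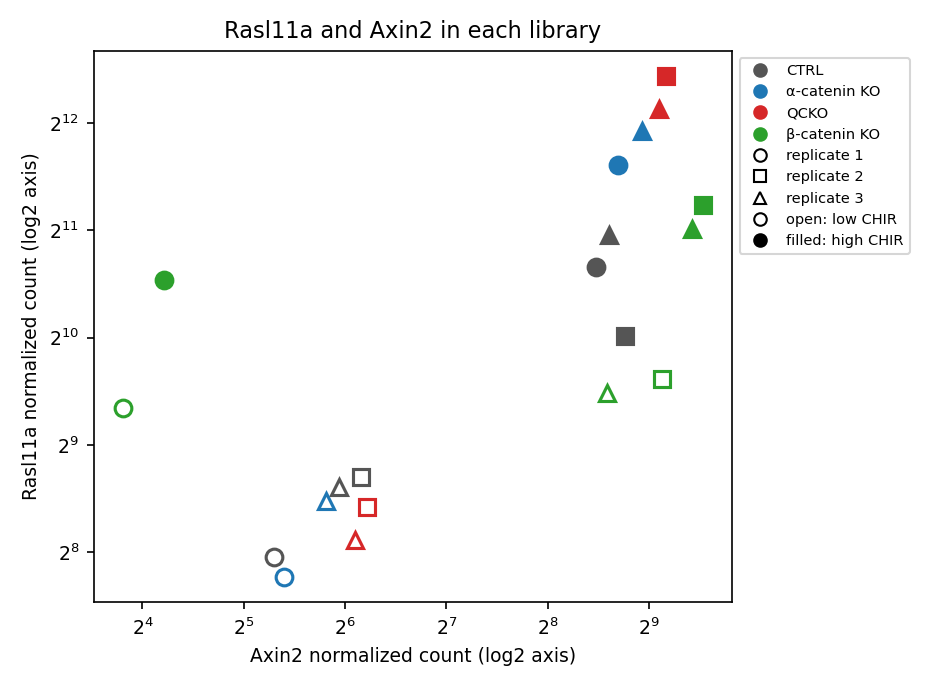
Rasl11a against Axin2 in each library (both axes normalized counts on a log2 scale), with colours for the knockouts, marker shapes for the replicates, and open and filled markers for low and high CHIR. β-catenin KO replicate 1 sits at Axin2 counts of 14 and 18.5 with Rasl11a at 650 and 1486, and the adhesion knockouts in high CHIR sit above CTRL in Rasl11a at Axin2 counts of 413 to 575.

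Gene lists are described by their members with an identifier, which have one because they passed a threshold in a deposited comparison, so counts and medians do not stand for the whole lists and are not read as a result about them. Of the Wnt/β-catenin responsive genes, 8 of the 9 with an identifier rose in high CHIR in CTRL and 0 fell, beside 4.84% of all genes called higher and 5.82% called lower. Their median log2 fold change was 4.12, and that of all genes tested was -0.01. The 4 largest were Wnt4, the ligand that drives epithelial transition (6.34), Sp5, a transcription factor (5.94), Lhx1, a factor of the renal vesicle (4.91), and Notum, a secreted Wnt inhibitor (4.74). Sp5 was at 0 in every CTRL library in low CHIR, so its value and its place in this order depend on the pseudocount. Lgr5, a receptor for R-spondins, had a log2 difference of -0.90 and was not called. None of the 9 was called in low CHIR in either adhesion knockout or in β-catenin KO, where 0% to 0.0659% of all genes were called. None was called in β-catenin KO against CTRL in high CHIR either, where 10.5% of all genes were. These β-catenin KO counts change with the replicates used. With replicates 2 and 3, 5 of the 9 (Axin2, Lef1, Sp5, Notum and Wnt4) were called higher than CTRL in low CHIR and 0 lower, beside 1.22% and 0.00602% of all genes. In high CHIR Notum was then called higher (log2 difference 1.61) and Wnt4 lower (-1.54), beside 6.04% and 1.69%. By replicate, their median difference from the CTRL mean was -0.97, 3.28 and 2.76 in β-catenin KO replicates 1, 2 and 3 in low CHIR. In high CHIR it was -3.62, -0.77 and -0.18, so the replicates went apart.

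In high CHIR the ratio of means to CTRL for the 9 Wnt genes ran from 0.669 (Lhx1) to 1.54 (Notum) in α-catenin KO and from 0.826 (Lhx1) to 1.73 (Notum) in QCKO, beside 2.27 and 3.25 for Rasl11a. None of the 9 had all adhesion knockout libraries above all CTRL libraries, as 5.68% of the 16516 genes tested had. With 9 genes at that share nothing is read from this count, and Rasl11a was selected on this contrast. Notum had 102, 312 and 125 normalized counts in CTRL, 211 and 342 in α-catenin KO and 392 and 228 in QCKO. Lef1 had 948 to 1465 normalized counts in CTRL, 1279 and 1204 in α-catenin KO and 1205 and 1493 in QCKO. Wnt4 had 4156 to 5401 in CTRL, 5212 and 5849 in α-catenin KO and 5664 and 4798 in QCKO. For both genes the adhesion knockout libraries overlapped with CTRL. Axin2 had 357 to 435 in CTRL, 413 and 490 in α-catenin KO and 575 and 550 in QCKO, so that QCKO but not α-catenin KO was free of overlap.

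Among the RAS-like small GTPases, 6 of 16 listed relatives had an identifier. In CTRL 4 were tested, of which Rasd1, a dexamethasone-induced member, rose with CHIR (log2 fold change 1.94, limma adjusted p = 0.01212) and Rasl12 fell (-1.75, limma adjusted p = 0.02994). Rasl11b, the paralogue of Rasl11a, gave -0.63 (limma adjusted p = 0.3221), and Gem, which also restrains calcium channels, gave -1.45 (limma adjusted p = 0.0919). Over all genes 4.84% were called higher and 5.82% lower. None of the relatives was called in low CHIR in any knockout, where at most 0.0659% of all genes were. In β-catenin KO against CTRL in high CHIR Rasl12 was called higher (1.69, limma adjusted p = 0.01757), beside 7.67% of all genes. It was not called with replicates 2 and 3 (1.51, limma adjusted p = 0.06652), and replicate 1 gave 2.07.

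The paralogue had its own levels in high CHIR. Rasl11b had 128, 40.6 and 84.6 normalized counts in CTRL, 240 and 236 in α-catenin KO and 225 and 328 in QCKO. All 4 adhesion knockout libraries were thus above all CTRL libraries for Rasl11b as for Rasl11a, which was so for 5.68% of the 16516 genes tested. Nothing is read from this likeness. Rasl11a was selected on this contrast, and Rasl11b has an identifier because it passed a threshold in a deposited comparison. In low CHIR Rasl11b had 89.2 to 170 in CTRL, 108 and 169 in α-catenin KO and 123 and 179 in QCKO, which overlapped. Unlike Rasl11a, its CTRL values in high CHIR were not above those in low CHIR.

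Of the RAS-ERK outputs and feedback genes, 7 of 19 had an identifier. In CTRL 4 of these fell with high CHIR and 1 rose, beside 5.82% and 4.84% of all genes. Etv1, an ETS factor (-3.0), Myc (-2.38), and Spry4 (-1.49) and Spry1 (-1.21), inhibitors of receptor tyrosine kinase signalling, fell, and Phlda1 rose (1.28). In β-catenin KO against CTRL in high CHIR 4 of the 7 were called higher, beside 7.67% of all genes, namely Etv1 (2.96), Myc (1.73), Spry4 (1.59) and Spry1 (0.96), and none was called in low CHIR. With replicates 2 and 3 Etv1 (2.60), Spry4 (1.52) and Spry1 (0.89) were called and Myc was not (1.41, limma adjusted p = 0.05183). Replicate 1 gave 3.69 for Etv1, 2.39 for Myc, 1.73 for Spry4 and 1.09 for Spry1. Etv1 was also called for the interaction (2.61, limma adjusted p = 0.01263), as it was with replicates 2 and 3 (2.63), and replicate 1 gave 2.58.

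Of 20 genes of RNA polymerase I transcription, 5 had an identifier. In CTRL Npm1, a nucleolar chaperone (0.85), and Polr1d, a subunit shared by RNA polymerases I and III (0.66), rose with high CHIR, beside 4.84% of all genes, and Polr1b, Polr1f and Taf1c were not called. Npm1 was called lower in β-catenin KO than in CTRL in high CHIR (-0.82, in a comparison that called 10.5% of all genes), also with replicates 2 and 3 (-0.78), and replicate 1 gave -0.90. None was called in low CHIR in the adhesion knockouts or in β-catenin KO, where at most 0.0659% of all genes were.

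Genes with profiles most like Rasl11a were named by Pearson's r of log2(normalized count + 1) over the 20 libraries, as a description. The points share libraries, size factors and the CHIR contrast. Of 2868 genes with a symbol and a mean of at least 100, 19 had r above 0.9 and 7 had r below -0.9, with a median of 0.039. Genes have a symbol because they passed a threshold in a deposited comparison, so these counts and the median do not stand for all genes. The highest were Kit, a receptor tyrosine kinase (0.967), Acot7, an acyl-CoA thioesterase (0.957), Runx1, a transcription factor (0.952), Sv2b, a synaptic vesicle glycoprotein (0.945), and Serinc2 (0.927).

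Kit had nearly the order of Rasl11a across groups. Its normalized counts were 129 to 152 in CTRL, 155 and 188 in α-catenin KO, 164 and 101 in QCKO, with 344 to 641 in β-catenin KO in low CHIR. In high CHIR they were 863 to 1877 in CTRL, 2149 and 4013 in α-catenin KO, 3995 and 4585 in QCKO, with 788 to 1391 in β-catenin KO. As with Rasl11a, CTRL replicate 2 was the lowest of its group in high CHIR and β-catenin KO stood above CTRL in low CHIR. Unlike that of Rasl11a, the β-catenin KO mean of Kit in high CHIR (1046.5) was below the CTRL mean (1469.9). In β-catenin KO replicate 1 Kit moved 2.79-fold with CHIR, from 344 to 960.

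The other 4 had higher means in both adhesion knockouts than in CTRL in high CHIR, but for 3 of them libraries overlapped. At high CHIR Serinc2 had 578 in CTRL, 1391 in α-catenin KO and 1445 in QCKO, whereas Acot7 had 1849, 2341 and 2706. Runx1 had 259, 362 and 495. Sv2b had 295, 528 and 470, from 4.0 in CTRL in low CHIR. For Acot7 and Runx1 both α-catenin KO libraries lay inside the CTRL range in high CHIR, with Acot7 at 2351 and 2331 against 1156 to 2424 and Runx1 at 337 and 386 against 154 to 413. Acot7 in QCKO replicate 2 (2311) was also inside it. Of Sv2b, with 128 to 545 in CTRL, both QCKO libraries (469.7 and 470.4) and α-catenin KO replicate 3 (390.3) lay inside the CTRL range. In high CHIR the β-catenin KO mean of Sv2b was 134, below CTRL, whereas that of Rasl11a was above it. In low CHIR the β-catenin KO mean was above the CTRL mean for each, at 442 against 211 for Serinc2, 1190 against 508 for Acot7, 104 against 41.1 for Runx1 and 37.4 against 4.0 for Sv2b.

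The lowest r were those of Hoxc9 (-0.952) and Hoxa10 (-0.926), homeobox factors of posterior identity, Fahd1, a mitochondrial enzyme (-0.925), Tafa2, a secreted chemokine-like protein (-0.920), and Cntrl, a centrosomal protein (-0.915). Hoxa10 had 8962 in CTRL in low CHIR, against 4174 in CTRL in high CHIR, with 4051 in α-catenin KO and 3473 in QCKO. Tafa2 had 242 in CTRL in low CHIR and 86.9, 64.7 and 73.6 in CTRL, α-catenin KO and QCKO in high CHIR.

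Within groups the order of likeness was another. After each gene's group mean was taken off, the highest r with Rasl11a were those of Gtf2i, a general transcription factor (0.935), Wbp1l (0.886), Gadd45g, a growth arrest gene (0.872), Dhx34, a helicase of nonsense-mediated decay (0.863), and Fam110a (0.856). Of these, Gadd45g also followed Rasl11a over all libraries (0.886), with 326 in CTRL high CHIR replicate 2 against 1733 and 2250 in replicates 1 and 3, whereas Gtf2i had r = -0.595 over all libraries. Kit had a within-group r of 0.550.

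**Figure D4:**
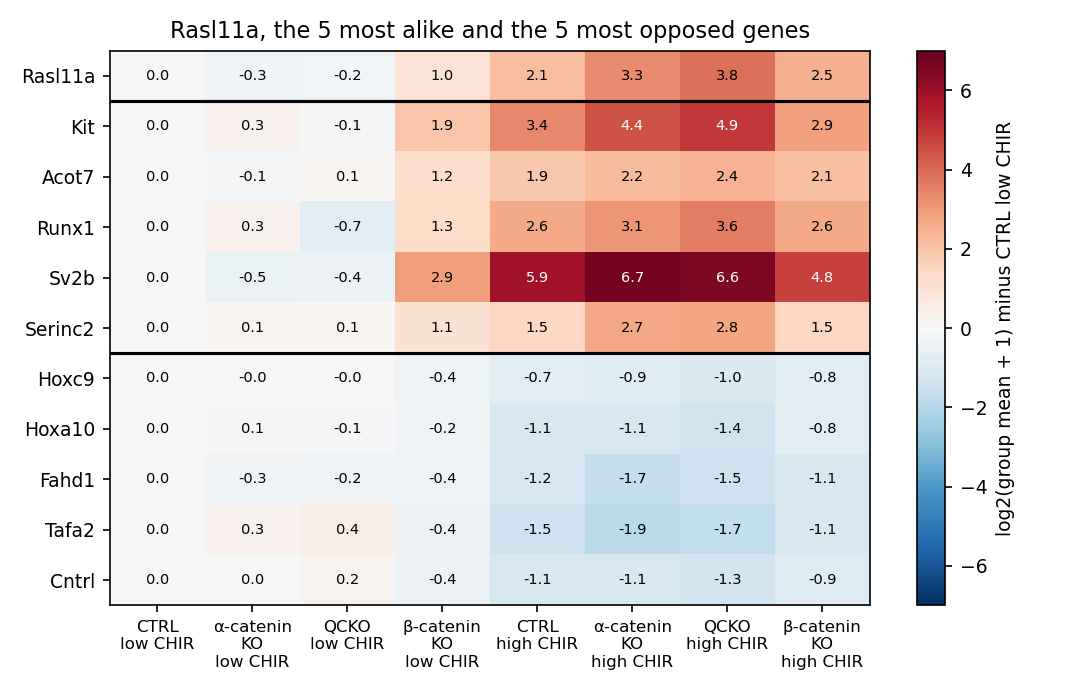
Log2 of the group mean + 1 minus that of CTRL in low CHIR (colour and printed value) for Rasl11a, the 5 genes most like it and the 5 most opposed to it (rows) in the 8 groups (columns). The 5 alike genes are above the CTRL low CHIR level in β-catenin KO in low CHIR and highest in α-catenin KO or QCKO in high CHIR, and the 5 opposed genes are lowest in high CHIR.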

How the data were processed

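The authors deposited signal values for 31130 Ensembl identifiers in 20 libraries, which are reads counted per gene and scaled by a size factor for each library. The submitters' processing notes list STAR, featureCounts, Salmon and DESeq2 and the builds GRCm38 and mm10 beside GRCh38, without roles. Whole reads were recovered from each library's smallest step (100% of values whole within 0.02 of a read). This check is weaker where the size factor is near 1, which holds for replicate 2 of β-catenin KO in low CHIR and replicate 3 of α-catenin KO in high CHIR. Symbols came from the deposited tables of comparisons (DESeq2 fold changes, p-values and adjusted p-values of genes past a threshold, not used otherwise), and 4316 identifiers had one.

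Values were taken as log2(normalized count + 1) for genes with a mean of at least 10 and fitted with limma 3.58.1 in R 4.3.3 (mean-variance trend, 1 mean per group), on the 14 libraries without β-catenin KO (16516 genes) or on all 20 (16691 genes). The pseudocount makes the fold change of a low gene too small. Single comparisons were also put to exact two-sided permutation tests. Alternatives were edgeR 4.0.16, DESeq2 1.42.0, the filter, the pseudocount (0.25 or 5), the fold limit, quantile normalization, the libraries in the fit, the date as a replicate block, and each library left out. The splits of the β-catenin KO libraries by replicate, and the folds in high CHIR with each library left out, were added after seeing the data. The fit was tested on simulated data.

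Replicate numbers are the dates in the sample titles, so they pair libraries across groups. The correlation across genes of low and high CHIR deviations of the same date and knockout was 0.047 to 0.721.

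Rasl11a and the gene lists were chosen with earlier results of these data known. The genes named are Rasl11a, the 5 highest and 5 lowest r over 20 libraries and the 5 highest within groups (symbol, mean of at least 100), the 5 largest non-overlapping differences of the adhesion knockouts in high CHIR, up to 4 members of each list by their change in CTRL, the targeted genes and the neighbours. Other members of lists were named after their values were seen. Read totals limit counting error only, as the files hold no molecular barcodes.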

Additional observations from a re-analysis of the deposited data

How the results depend on the processing

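Of 228 values of the 8 tested comparisons under other settings, 223 kept their direction and their side of the thresholds. Rasl11a in β-catenin KO against CTRL in low CHIR was called with DESeq2 (1.03). Its rise with CHIR in β-catenin KO was called with the replicate block (1.45) and with DESeq2 (1.47). The α-catenin KO difference in low CHIR ran from -0.65 to 0.06 when single libraries were left out, and that of β-catenin KO in high CHIR was -0.004 with replicate 1 alone. The causes were not tested. The replicate block changed no other call of Rasl11a. With single libraries left out the log2 difference ran from 1.89 to 2.38 for CHIR in CTRL (called each time), -0.46 to -0.05 for both adhesion knockouts and -0.39 to -0.003 for QCKO in low CHIR, 0.83 to 1.20 and 0.12 to 0.59 for β-catenin KO in low and high CHIR, 1.29 to 1.64 for its CHIR response and -0.94 to -0.44 for the interaction. Counts of called genes ranged from 761 to 2986 for CHIR in CTRL (1760 as reported), 0 to 2 for QCKO and 0 to 1 for α-catenin KO in low CHIR, 0 to 203 and 240 to 3060 for β-catenin KO in low and high CHIR, 0 to 51 for its CHIR response and 46 to 400 for the interaction, not counting replicate 1 alone. With the replicate block they were 2556, 74, 2881, 40 and 400 for CHIR in CTRL, β-catenin KO in low and high CHIR, its CHIR response and the interaction. Of the 5 genes most like Rasl11a, 4 were kept with Spearman's rho, 5 with a pseudocount of 5 and 2 over the 14 libraries without β-catenin KO. Each group has 2 or 3 libraries, which limits the precision, and a lone library left by leaving out its pair is assumed to vary like the other groups.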
